A study of Mus musculus with 24 samples.

Results

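The 33 genes described here encode the proteins with which a cell enters mitosis, aligns and parts its chromosomes, and divides. They were taken by name: a row of the deposited count table belongs to the set when its gene symbol is on a list of 33 mitosis genes. The list itself was drawn up with earlier results of these data known. All 33 were found, with 1 row each, among the 46078 genes of the table, and all 33 were among the 15456 genes that were tested. Of the 33, 27 lay above 0.5 CPM, counts scaled to a common library total, in at least 6 of the 12 libraries without injury. The other 6 (Bub1, Ccnb1, Ect2, Kif2c, Ndc80 and Ttk) passed the filter on low counts through the injured libraries, so for those genes a difference follows in part from the filter.

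The study sequenced polyadenylated RNA from the apex of the heart ventricles of male C57BL/6 mice aged 10 weeks, at day 5, in 4 groups of 6 libraries. DTR_PYR hearts had an injury made with diphtheria toxin and were treated with pyridostigmine, which blocks the cholinesterases that break down acetylcholine. DTR_PBS hearts had the same injury and the vehicle, PBS. WT_PYR hearts were wild type, had no toxin and had pyridostigmine, and WT_PBS hearts were wild type, had no toxin and had the vehicle. DTR commonly stands for the diphtheria toxin receptor, which makes mouse cells sensitive to the toxin. Neither the labels nor the protocols say which cells carried it, which promoter drove it or how the drug was dosed. Genotype and toxin moved together in all groups, so they cannot be told apart, and "injury" below covers both.

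The proteins of this set act in sequence through mitosis. The kinase Cdk1 with cyclins A and B starts the process, Plk1 and the Aurora kinases build the spindle and correct its attachments, kinetochore proteins bind chromosomes to microtubules, and the anaphase-promoting complex with Cdc20 ends it by marking cyclin B and securin for destruction. Adult heart muscle cells rarely divide, whereas macrophages, fibroblasts and endothelial cells of an injured heart can. Transcripts of many of these genes peak late in the cell cycle. That peak is set in mammals by the DREAM and MuvB complexes with B-Myb and FoxM1, which act at a promoter word called the cell cycle genes homology region (CHR), and by NF-Y, which binds CCAAT boxes.

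The promoter stretches of 5 members are printed because they show the words shared by the set: Cdk1 and both B cyclins as its driving kinase, Cdc20 as its end point, and Cenpf as the member whose level did not follow the others. Each runs 5′ to 3′ along the gene's strand, from 140 bases before to 10 bases after the start of the RefSeq transcript (GRCm38.p6). Capitals mark the CHR word TTTGAA and the CCAAT word, on either strand.
Cdk1 (chr10:69352903-69353052, minus strand): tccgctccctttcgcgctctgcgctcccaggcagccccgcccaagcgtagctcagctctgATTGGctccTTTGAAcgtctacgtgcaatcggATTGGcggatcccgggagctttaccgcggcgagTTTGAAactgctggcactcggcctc
Ccnb1 (chr13:100786477-100786626, minus strand): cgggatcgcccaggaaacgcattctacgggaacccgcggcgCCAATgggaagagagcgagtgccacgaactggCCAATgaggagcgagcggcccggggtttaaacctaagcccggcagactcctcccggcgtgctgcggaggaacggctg
Ccnb2 (chr9:70421545-70421694, minus strand): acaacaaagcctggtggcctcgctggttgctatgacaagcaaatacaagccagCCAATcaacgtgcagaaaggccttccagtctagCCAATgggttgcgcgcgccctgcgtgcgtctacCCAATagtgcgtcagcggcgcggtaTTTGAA
Cdc20 (chr4:118437334-118437483, minus strand): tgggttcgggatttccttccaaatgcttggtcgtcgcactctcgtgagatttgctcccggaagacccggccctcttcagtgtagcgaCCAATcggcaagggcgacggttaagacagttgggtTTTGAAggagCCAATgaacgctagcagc
Cenpf (chr1:189688077-189688226, minus strand): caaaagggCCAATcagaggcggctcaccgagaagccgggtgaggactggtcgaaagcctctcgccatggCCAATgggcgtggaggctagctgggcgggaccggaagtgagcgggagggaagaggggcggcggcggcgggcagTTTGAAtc

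Windows of 250 bases before to 50 bases after the start were in the RefSeq table for 29 of the 33 members; Aurkb, Ccna2, Kif20a and Tpx2 are named only. A CHR word, TTTGAA or its variant TTCGAA on either strand, was in 24 of the 29 windows (82.8%), against 19.4% of the windows of 27025 genes of the same length. A CCAAT word, on either strand, was in 23 of 29 (79.3%), against 37.9% of all genes, and 2 or more were in 55.2%, against 12.2%. Both kinds of word were in 72.4% of the members' windows and in 7.70% of all. The words lay near the start: 22 members had a CHR word between 30 bases before and 50 bases after it, and 22 had a CCAAT word within the 120 bases before it. In 1 member the words of both kinds shared bases. Ccnb1 had a pair of CCAAT words and no CHR word in its window, and the windows of Nuf2, Nusap1 and Birc5 held neither. Cenpf had 1 CHR word and 2 CCAAT words. These matches describe letters in a window and say nothing of what is bound there.

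Total counts per library ran between 1877914 and 37842245, and the 33 members together took between 276 and 30866 counts of a library. DTR_PYR 2 (2805284), DTR_PYR 3 (2387030) and DTR_PBS 4 (1877914) were the shallowest. A count of 0 allows up to 3 counts, which is 1.33 CPM in DTR_PBS 4 and 0.0644 CPM in DTR_PBS 1 (counting error only). Each title carries its own animal tag, so each library was taken as 1 animal. The tags end in U or V, letters that no label explains. DTR_PYR and DTR_PBS each held 2 U and 4 V libraries, and WT_PYR and WT_PBS each held 4 U and 2 V. Libraries DTR_PYR 4, 5 and 6, all V, stood apart from the other injured libraries in the levels of the members, so the counts of called members and of called list genes are given with and without them. The 10 cardiomyocyte markers, which define the labelled tissue, were present in all libraries, with a sum between 24055 and 110254 CPM.

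Levels were low in every group, and lowest without injury. Dividing the group mean of CPM by the length of the gene's merged exons gives CPM per kb, which allows levels of different genes to be compared. The members' median was 0.916 CPM per kb in DTR_PYR, 1.51 in DTR_PBS, 0.267 in WT_PYR and 0.243 in WT_PBS. Cdc20, the activator of the anaphase-promoting complex, had the highest level per kb in both injured groups, at 3.68 in DTR_PYR and 6.10 in DTR_PBS. Cenpf had the highest in both groups without injury, at 1.54 CPM per kb in WT_PYR and 1.31 in WT_PBS. Bub1, Ttk and Ndc80 had the 3 lowest levels per kb in all 4 groups. At least 1 library with no count was found for 3 members in DTR_PYR and 1 in DTR_PBS, against 8 in WT_PYR and 7 in WT_PBS.

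**Figure D1:**
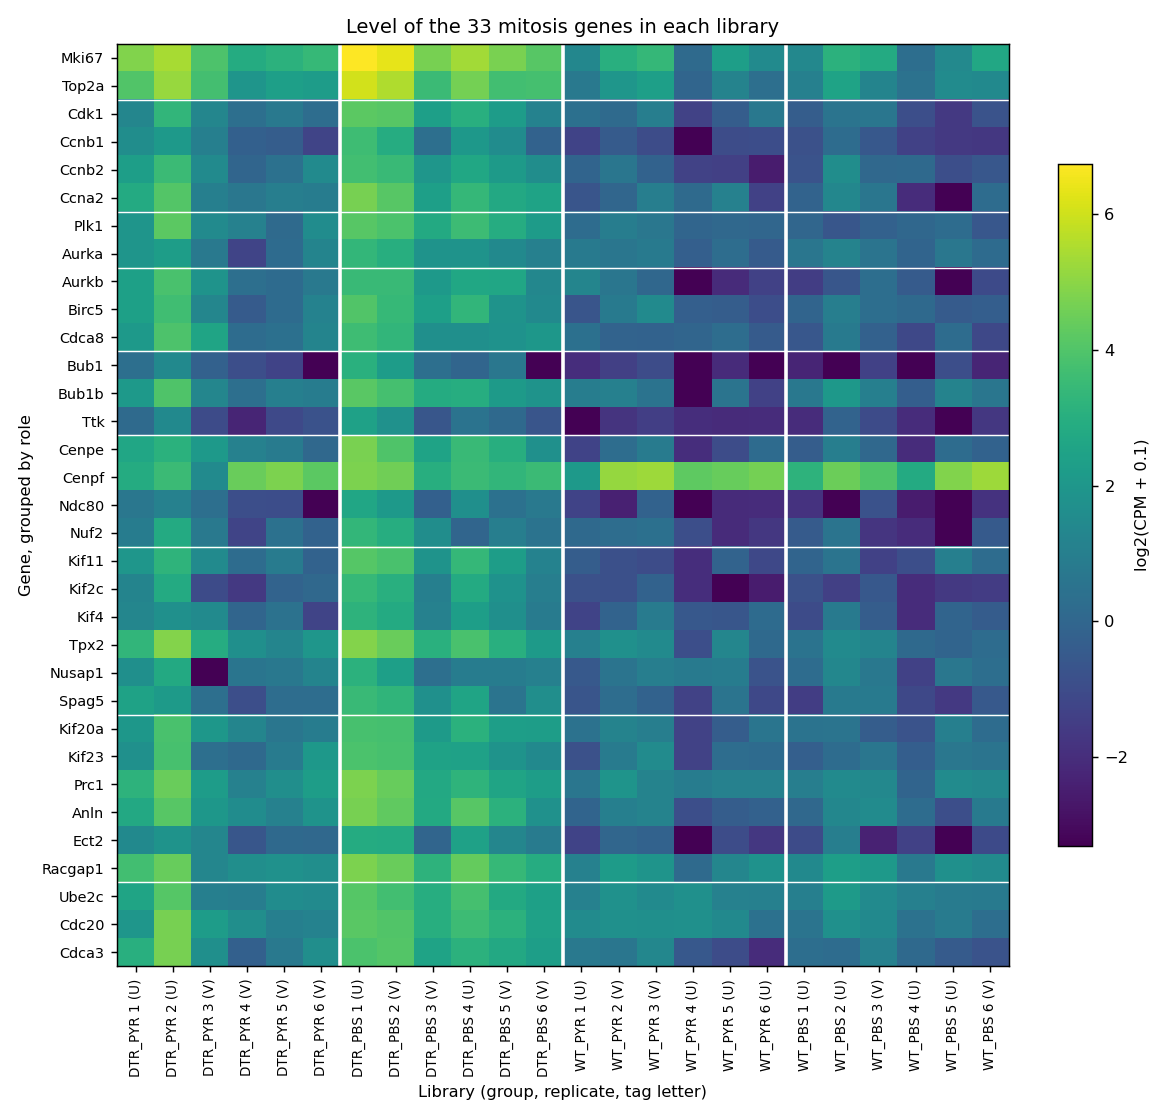
Level of each of the 33 mitosis genes (rows, grouped by role and parted by white lines) in each of the 24 libraries (columns, with the tag letter), as log2(CPM + 0.1). DTR_PBS 1 and 2 and DTR_PYR 2 are bright for nearly all genes, and DTR_PYR 4, 5 and 6 resemble the libraries without injury. The row of Cenpf differs in being brightest in a library without injury, WT_PBS 6.

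Injury without the drug came with higher transcript levels of nearly the whole set. In DTR_PBS against WT_PBS, 32 of the 33 members rose, none fell, and Cenpf was not called (edgeR quasi-likelihood test, Benjamini-Hochberg adjusted p under 0.05 over all genes). Among all genes tested 21.3% were called higher and 21.6% lower. The median log2 fold change of the 33 was 3.19, against 0.01 over all genes. The rises ran between 1.56 for Nusap1 and 4.39 for Bub1 on the log2 scale. For 22 members every DTR_PBS library lay above every WT_PBS library, a pattern that 11.2% of all genes tested had, called or not. All 6 members that passed the filter only with the injured libraries were among the 32. In bulk tissue, more cells of a dividing type and more of this RNA per cell cannot be told apart.

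The marker of dividing cells Mki67 (ENSMUSG00000031004, chromosome 7, 135689788 to 135716379), whose product coats mitotic chromosomes, stood at 17.5, 33.7 and 107 CPM in DTR_PBS and at 1.14, 4.55 and 8.69 CPM in WT_PBS (lowest, median and highest of 6 libraries, as for all genes below). Its groups did not overlap, and its log2 fold change was 3.46 ± 0.58 (SE; adjusted p = 6.83e-05). Top2a, the topoisomerase that untangles sister DNA strands, averaged 29.5 ± 22.8 CPM in DTR_PBS and 2.77 ± 1.53 CPM in WT_PBS (SD, n = 6 each), also without overlap, with a log2 fold change of 3.55 ± 0.58 (SE; adjusted p = 5.77e-05).

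Cdk1, the kinase that starts mitosis, and its cyclins rose in all 4 cases. Ccnb2, a B-type cyclin (ENSMUSG00000032218, chromosome 9, 70407689 to 70421554) and the highest of the 4 per kb, stood at 2.94, 5.29 and 13.1 CPM in DTR_PBS and at 0.428, 0.763 and 2.99 CPM in WT_PBS. Only the highest WT_PBS library reached into the DTR_PBS range, and the log2 fold change was 2.93 ± 0.61 (SE; adjusted p = 0.000498). Cdk1 itself stood at 2.14, 6.48 and 18.4 CPM in DTR_PBS and at 0.214, 0.585 and 1.45 CPM in WT_PBS, with no overlap and a log2 fold change of 3.68 ± 0.59 (SE; adjusted p = 5.13e-05). Ccnb1, the other B cyclin, and Ccna2, the A cyclin of S and G2 phase, rose by 3.54 and 3.68.

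Among the mitotic kinases, Plk1, which acts at centrosomes, kinetochores and the cleavage site (ENSMUSG00000030867, chromosome 7, 122159437 to 122169875), had the smallest adjusted p of the set. It stood at 4.54, 9.67 and 17.3 CPM in DTR_PBS and at 0.543, 0.834 and 1.07 CPM in WT_PBS. The lowest injured library was thus above the highest uninjured one, and the log2 fold change was 3.72 ± 0.53 (SE; adjusted p = 2.34e-05). Aurka, the centrosomal Aurora kinase, rose by 1.94, with overlap between its libraries. All 3 members of the chromosomal passenger complex, which corrects faulty attachments, rose without overlap. Its kinase Aurkb (ENSMUSG00000020897, chromosome 11, 69045647 to 69051664) stood at 2.40, 6.17 and 11.2 CPM in DTR_PBS and at 0, 0.464 and 1.16 CPM in WT_PBS, with a log2 fold change of 3.78 ± 0.72 (SE; adjusted p = 0.000227). Birc5 (survivin) rose by 3.02 and Cdca8 (borealin), another subunit, by 3.20.

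The 3 spindle checkpoint genes, which hold anaphase until all chromosomes are attached, rose with overlap between libraries. Bub1b, the BubR1 subunit of the checkpoint complex (ENSMUSG00000040084, chromosome 2, 118598211 to 118641591), stood at 3.47, 7.39 and 17.9 CPM in DTR_PBS and at 0.713, 1.74 and 4.07 CPM in WT_PBS, with a log2 fold change of 2.35 ± 0.60 (SE; adjusted p = 0.00285). Bub1, a checkpoint kinase, had the largest rise of the set, 4.39 ± 0.91 (SE; adjusted p = 0.000454), on few counts: it had no count in DTR_PBS 6 and in 2 of the WT_PBS libraries. Ttk (Mps1), the kinase that recruits the others, rose by 3.14. At the kinetochore, Cenpe, a motor that moves chromosomes to the spindle middle, rose by 3.86, and Ndc80 and Nuf2, which form the microtubule-binding arm, by 3.97 and 3.19.

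All 6 spindle motors and microtubule proteins rose. Tpx2, which activates Aurora A and seeds spindle microtubules (ENSMUSG00000027469, chromosome 2, 152847964 to 152895321), stood at 4.40, 11.2 and 29.1 CPM in DTR_PBS and at 0.857, 1.20 and 2.72 CPM in WT_PBS, without overlap, and its log2 fold change was 3.32 ± 0.58 (SE; adjusted p = 9.78e-05). The motor Kif11 (Eg5), which pushes spindle poles apart, rose by 3.26, the microtubule-shortening Kif2c by 4.03 and the chromosome motor Kif4 by 2.92. Spag5 (astrin) rose by 3.04 and Nusap1, a microtubule bundler, by 1.56 (adjusted p = 0.0276), the smallest rise among the called members.

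Genes of the central spindle and of cytokinesis, 6 in number, rose in every case, 5 of them without overlap. Racgap1, part of the centralspindlin complex (ENSMUSG00000023015, chromosome 15, 99620496 to 99651656), stood at 7.47, 15.5 and 26.8 CPM in DTR_PBS and at 1.57, 3.02 and 4.89 CPM in WT_PBS, with a log2 fold change of 2.37 ± 0.48 (SE; adjusted p = 0.000368). Its partner motor Kif23 rose by 2.81, the bundling protein Prc1 by 2.57, the motor Kif20a by 2.95, the scaffold anillin (Anln) by 3.15 and Ect2, an exchange factor that acts at the cleavage furrow, by 3.31. At mitotic exit Cdc20 (ENSMUSG00000006398, chromosome 4, 118432901 to 118437352) stood at 5.34, 10.4 and 18.0 CPM in DTR_PBS and at 1.15, 1.54 and 3.26 CPM in WT_PBS, without overlap, and its log2 fold change was 2.70 ± 0.52 (SE; adjusted p = 0.000245). Ube2c, the ubiquitin-conjugating enzyme of the same complex, rose by 2.22 and Cdca3, a trigger of mitotic entry through Wee1 breakdown, by 3.19. The libraries were not strand-specific, and exons of Ube2c, Kif20a, Kif4, Prc1, Ccna2 and Nusap1 overlap those of Tnnc2, Cdc23, Pdzd11, Rccd1, Exosc9 and Oip5 on the other strand, and Top2a, Plk1, Cdc20 and Cdca8 also share exon bases with another annotated gene, so reads of these pairs cannot be told apart.

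**Figure D2:**
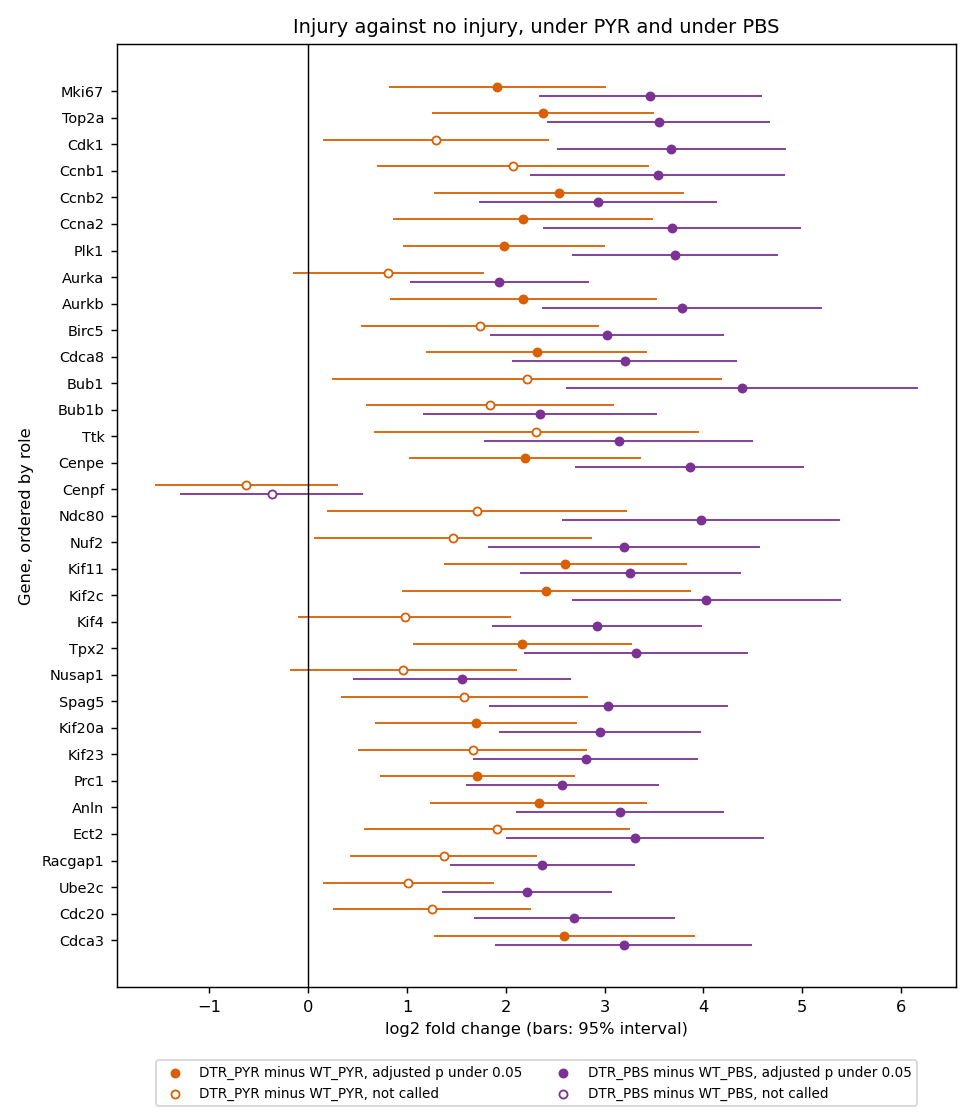
Log2 fold change of each mitosis gene (rows, ordered by role) with its 95% interval, for DTR_PYR minus WT_PYR (upper, orange) and DTR_PBS minus WT_PBS (lower, purple). Filled points passed an adjusted p of 0.05: 15 members under pyridostigmine and 32 under PBS, with Cenpf open in both.

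**Figure D3:**
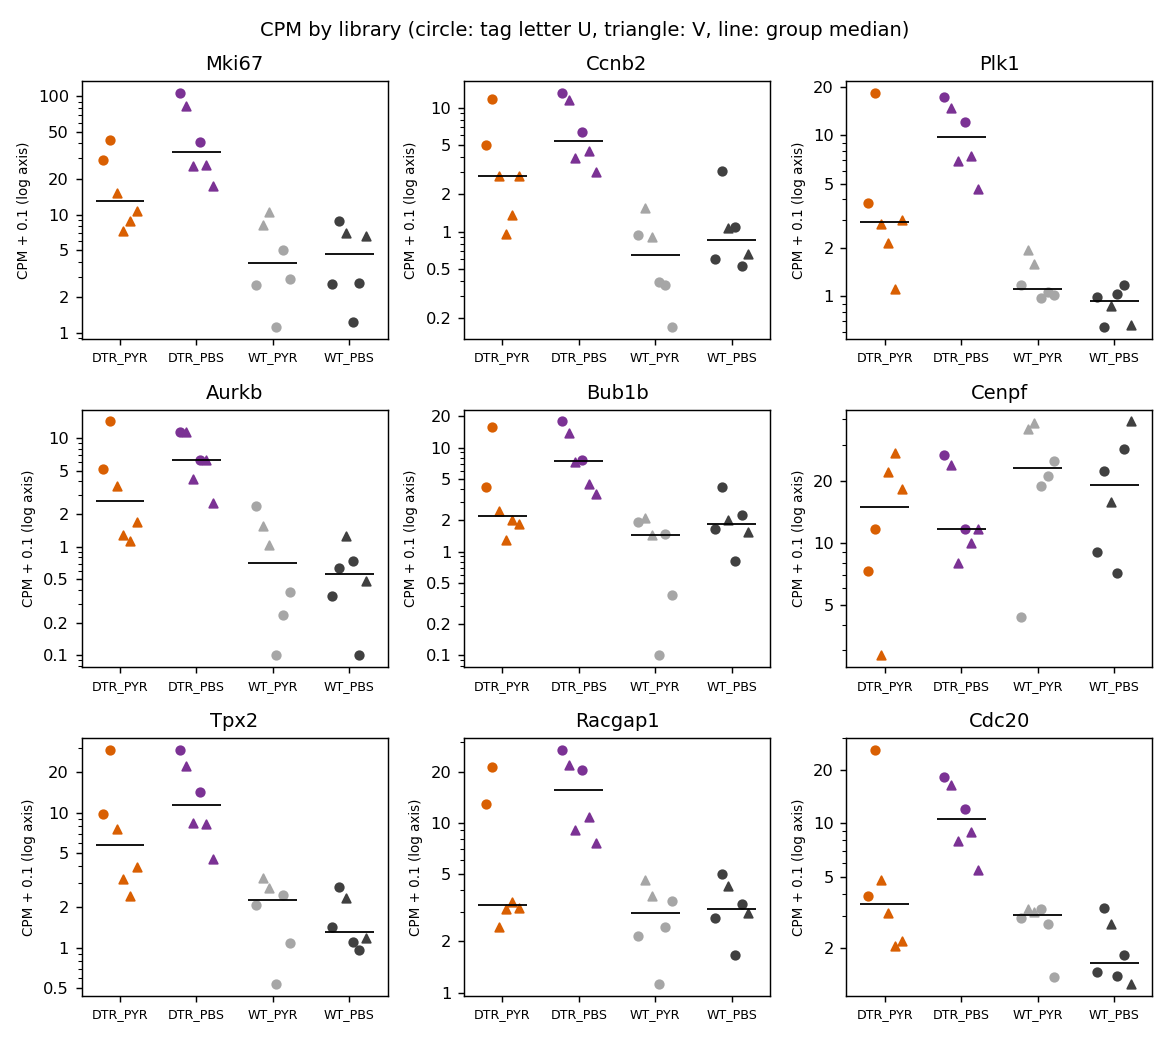
CPM + 0.1 on a log axis in every library for Cenpf and for the other 8 members with the highest level per kb in their role, with group medians as lines. For Mki67, Plk1 and Racgap1, among others, all 6 DTR_PBS libraries lie above all 6 WT_PBS libraries, while the DTR_PYR libraries reach into the WT_PYR range.

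Cenpf, a large coiled-coil protein of the outer kinetochore (ENSMUSG00000026605, chromosome 1, 189640606 to 189688086), did not follow the rest. It stood at 7.89, 11.6 and 26.7 CPM in DTR_PBS and at 6.99, 19.0 and 38.9 CPM in WT_PBS, and its log2 fold change was −0.37 ± 0.47 (SE; adjusted p = 0.559). Under pyridostigmine it stood at 2.73, 14.9 and 27.2 CPM in DTR_PYR and at 4.27, 23.0 and 38.1 CPM in WT_PYR, with −0.62 ± 0.47 (SE; adjusted p = 0.39). The spread within each group was wide and the groups overlapped in both comparisons. Among the DTR_PYR libraries it was highest in DTR_PYR 4, 5 and 6, at 21.9, 27.2 and 18.3 CPM, where the other 32 members were lowest. The relation was the opposite in DTR_PBS. There Cenpf was highest in DTR_PBS 1 and 2, at 26.7 and 23.8 CPM, where the other 32 members were highest too. Leaving out those 3 libraries, a choice made after seeing their values, gave −1.70 (adjusted p = 0.038) for Cenpf in DTR_PYR minus WT_PYR. In 2 alternatives its sign in DTR_PBS minus WT_PBS turned: 0.07 with total-count scaling and 0.35 in U libraries alone, neither of them called.

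With injury under pyridostigmine fewer members passed. In DTR_PYR against WT_PYR 15 members rose, none fell and 18 were not called in edgeR, where 8.06% of all genes were called higher. The median log2 fold change was 1.91, against 0.04 over all genes, and 32 of the 33 estimates were positive. Whether the injury difference depended on the drug is the interaction given below, which called 0 of 33 members (smallest adjusted p = 0.563). No member had its 6 DTR_PYR libraries all above its 6 WT_PYR libraries, while 2.19% of all genes did so, called or not. The count of called members moved with the tool and the libraries: DESeq2 called 24 and limma voom 0, and leaving out DTR_PYR 2 left 2. The same fits called 10.7%, 2.56% and 3.47% of all genes higher.

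The 15 called members came from 8 of the 9 roles, with none from the spindle checkpoint. Mki67 stood at 7.24, 12.9 and 42.6 CPM in DTR_PYR and at 1.02, 3.84 and 10.3 CPM in WT_PYR, with a log2 fold change of 1.91 ± 0.56 (SE; adjusted p = 0.0277). Ccnb2 stood at 0.864, 2.73 and 11.5 CPM in DTR_PYR and at 0.0704, 0.549 and 1.46 CPM in WT_PYR, with 2.54 ± 0.64 (SE; adjusted p = 0.0136). The lower DTR_PYR libraries of both genes lay within the WT_PYR range.

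Plk1 stood at 1.01, 2.81 and 18.3 CPM in DTR_PYR and at 0.878, 1.01 and 1.83 CPM in WT_PYR, with 1.98 ± 0.52 (SE; adjusted p = 0.0169). Tpx2 stood at 2.30, 5.63 and 29.0 CPM in DTR_PYR and at 0.439, 2.16 and 3.19 CPM in WT_PYR, with 2.17 ± 0.56 (SE; adjusted p = 0.016). Aurkb stood at 1.04, 2.55 and 14.2 CPM in DTR_PYR and at 0, 0.611 and 2.29 CPM in WT_PYR, with 2.18 ± 0.69 (SE; adjusted p = 0.0398). In each of these genes DTR_PYR 2 lay well above the other 5 libraries of its group.

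The largest rise was that of the pole-separating motor Kif11, at 0.801, 2.23 and 9.17 CPM in DTR_PYR and at 0.146, 0.430 and 0.824 CPM in WT_PYR, with 2.60 ± 0.63 (SE; adjusted p = 0.00988). Cdca3 had 0.756, 3.08 and 25.7 CPM in DTR_PYR and 0.141, 1.02 and 2.42 CPM in WT_PYR, with 2.59 ± 0.67 (SE; adjusted p = 0.016). For Kif2c the values were 0.216, 0.887 and 7.10 CPM in DTR_PYR and 0, 0.301 and 0.806 CPM in WT_PYR, with 2.41 ± 0.74 (SE; adjusted p = 0.0358). For all 3 genes the lowest DTR_PYR library lay below the highest WT_PYR library.

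Top2a had 3.67, 9.15 and 36.4 CPM in DTR_PYR and 0.878, 1.90 and 4.97 CPM in WT_PYR, with 2.38 ± 0.57 (SE; adjusted p = 0.00988). Anillin transcripts stood at 2.05, 3.71 and 17.5 CPM in DTR_PYR and at 0.439, 0.806 and 2.15 CPM in WT_PYR, with 2.33 ± 0.56 (SE; adjusted p = 0.00978), the smallest adjusted p of the members in this contrast. Cdca8 had 1.08, 3.18 and 15.1 CPM in DTR_PYR and 0.633, 0.850 and 1.22 CPM in WT_PYR, with 2.31 ± 0.57 (SE; adjusted p = 0.0113). In all 3 genes the lowest DTR_PYR library lay below the highest WT_PYR library.

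Cenpe had 0.961, 3.17 and 8.58 CPM in DTR_PYR and 0.146, 0.734 and 1.75 CPM in WT_PYR, with 2.19 ± 0.60 (SE; adjusted p = 0.0204). Ccna2 had 1.51, 1.91 and 16.3 CPM in DTR_PYR and 0.281, 0.969 and 2.06 CPM in WT_PYR, with 2.18 ± 0.67 (SE; adjusted p = 0.0354). The central spindle genes Prc1 and Kif20a had the smallest rises of the 15. Prc1 stood at 2.05, 4.74 and 21.6 CPM in DTR_PYR and at 1.45, 2.05 and 3.65 CPM in WT_PYR, with 1.71 ± 0.50 (SE; adjusted p = 0.0289). Kif20a stood at 1.46, 3.08 and 14.5 CPM in DTR_PYR and at 0.293, 1.35 and 2.19 CPM in WT_PYR, with 1.70 ± 0.52 (SE; adjusted p = 0.0352).

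Members that missed the threshold included several with large estimates. Bub1b stood at 1.19, 2.12 and 15.7 CPM in DTR_PYR and at 0, 1.36 and 2.01 CPM in WT_PYR, with 1.84 ± 0.64 (SE; adjusted p = 0.0569). Cdc20 stood at 1.94, 3.43 and 25.7 CPM in DTR_PYR and at 1.27, 2.96 and 3.22 CPM in WT_PYR, with 1.25 ± 0.51 (SE; adjusted p = 0.1). Racgap1 stood at 2.34, 3.18 and 21.3 CPM in DTR_PYR and at 1.02, 2.86 and 4.47 CPM in WT_PYR, with 1.37 ± 0.48 (SE; adjusted p = 0.0605). In all 3 genes DTR_PYR 2 was the highest library, and 4 or 5 of the DTR_PYR libraries lay within or near the WT_PYR range. Cdk1, called under PBS, had 1.29 ± 0.58 (SE; adjusted p = 0.138) here. At an unadjusted p under 0.05 the number was 28 of 33, beside 4562 of all 15456 genes (29.5%), and the 5 others were Nuf2, Kif4, Aurka, Nusap1 and Cenpf.

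The injured libraries differed widely among themselves. The CPM of the 32 members without Cenpf summed to 182, 445, 106, 49.6, 58.2 and 71.4 in DTR_PYR 1 to 6. The sums were 636, 495, 168, 298, 179 and 124 in DTR_PBS 1 to 6. In WT_PYR they lay between 21.5 and 63.5, with a median of 35.4, and in WT_PBS between 20.9 and 70.4, with a median of 34.7. All 6 DTR_PBS libraries were thus above all 12 libraries without injury, and of the DTR_PYR libraries 1, 2, 3 and 6 were, the last by a small margin. DTR_PYR 2 had the highest value of its group for 31 members and DTR_PBS 1 for 31 members of its group. DTR_PYR 4 exceeded all 6 WT_PYR libraries for 7 members, DTR_PYR 5 for 7 and DTR_PYR 6 for 14, against 32 each in DTR_PYR 1 and 2.

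The tag letter separated the DTR_PYR libraries. In the 2 U libraries of DTR_PYR the 32 members summed to between 182 and 445 CPM, against 21.5 to 36.1 CPM in the 4 U libraries of WT_PYR. In the 4 V libraries of DTR_PYR they summed to between 49.6 and 106 CPM, against 58.1 to 63.5 CPM in the 2 V libraries of WT_PYR. Fitted within U libraries, DTR_PYR minus WT_PYR had a median log2 fold change of 3.42 and 26 of 27 tested members called higher, where 15.6% of all genes were. Fitted within V libraries, the median was 0.04 and 0 of 31 were called, with a smallest adjusted p of 0.966, as were 0% of all genes. The same contrast under PBS had medians of 3.69 in U and 2.82 in V, with 26 of 27 and 26 of 31 called higher, beside 19.5% and 9.72% of all genes. The difference between letters was not tested. In WT_PYR and WT_PBS 2 of the 4 U animals each had tags from a number series with no injured animal, so the U contrasts set some animals of that series against injured animals of another. With the letter as a term in the edgeR fit, 20 members were called higher in DTR_PYR minus WT_PYR (11% of all genes) and 32 in DTR_PBS minus WT_PBS (23.1%).

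Without DTR_PYR 4, 5 and 6, 31 members were called higher and 1, Cenpf, lower in DTR_PYR minus WT_PYR, with a median log2 fold change of 2.67. In that fit 17.5% of all genes were called higher, and no share called lower is given. Its called rises ran between 1.49 for Aurka and 3.49 for Cdca3, and Nusap1 was not called. Without DTR_PBS 1 and 2, the libraries with the highest sums, 28 members were called higher in DTR_PBS minus WT_PBS, with a median of 2.32, where 14.9% of all genes were. Both sets of libraries were picked after their values were seen. In DTR_PYR minus DTR_PBS, described next, 0 members were called without either set, with medians of −0.45 without the 3 libraries and −0.40 without the 2.

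Between the injured groups, all 33 estimates were lower under the drug, and none passed. In DTR_PYR minus DTR_PBS edgeR called 0 members, as it called 0% of all genes, and DESeq2 also called 0 members, with 0.453% of all genes lower. At an unadjusted p under 0.05 the count was 19 members, all lower, and 2991 genes (19.4%). The median log2 fold change of the members was −1.19, against −0.01 over all genes, and the values ran between −1.96 for Bub1 and −0.01 for Cenpf. The smallest adjusted p was 0.134, for Cdk1, which stood at 1.12, 1.95 and 9.77 CPM in DTR_PYR and at 2.14, 6.48 and 18.4 CPM in DTR_PBS, a difference of −1.76 ± 0.54 (SE). Its groups overlapped, since DTR_PYR 2 reached 9.77 CPM.

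This call depended on 1 library and on the tool. Without DTR_PYR 2, 27 of the 33 members were lower in DTR_PYR than in DTR_PBS (edgeR, smallest adjusted p 0.00878), and the median was −1.86, where 7.97% of all genes were lower. With all libraries, limma voom called 30 members lower, with a median of −1.90, and 7.38% of all genes. With all libraries the edgeR log2 difference of Mki67 was −1.45 ± 0.53 (SE; adjusted p = 0.162) and that of Plk1 −1.15 ± 0.47 (SE; adjusted p = 0.192). Bub1b and Racgap1 had −1.14 and −1.12, Ccnb2 and Cdc20 had −0.93 and −0.84, and Aurkb and Tpx2, the smallest of these 8, had −0.76 and −0.73. DTR_PYR and DTR_PBS each enter 1 of the injury contrasts above, so these values are not independent of them. Within V libraries 16 of 31 members were called lower, and within U libraries 0 of 27, with medians of −1.94 and −0.51, beside 3.08% and 0% of all genes.

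Without injury the drug gave no detectable difference in the members at this depth. In WT_PYR minus WT_PBS edgeR called 0 members and 0% of all genes, as did DESeq2 and limma voom for the members. No member and 481 genes (3.11%) had an unadjusted p under 0.05, and DESeq2 called 1 gene and limma voom 0. The members' log2 differences ran between −0.89 for Kif11 and 0.84 for Aurkb, with a median of 0.10 and both signs present. For Mki67 the 95% interval of the difference was −1.02 to 1.21, and for Plk1 −0.50 to 1.67, so differences within those intervals are not excluded. These intervals are not adjusted for the number of genes. The drug effect with injury minus that without (the interaction) was called for 0 members and for 0% of all genes in edgeR. All 33 estimates were negative, with a median of −1.25, and 4 members (Cdk1, Kif4, Plk1 and Ndc80) and 1231 genes (7.96%) had an unadjusted p under 0.05. Without DTR_PYR 4, 5 and 6 the interaction also called 0 members, with a median of −0.52 and 28 negative estimates. DESeq2 and limma voom called 0 members for the interaction, and 9 and 0 genes.

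Markers of several other cell types also differed between injured and uninjured libraries. The 14 macrophage genes were all higher in both injury contrasts, and their summed CPM had a median of 746 in DTR_PYR (460 to 2934), 1547 in DTR_PBS (947 to 2871), 383 in WT_PYR (294 to 526) and 420 in WT_PBS (332 to 488). Of 7 recruited monocyte genes 5 rose under pyridostigmine and 6 under PBS, and of 8 activated fibroblast genes 6 and 7. In the same order, 1 and 8 of 10 cardiomyocyte genes fell, 3 and 6 of 8 endothelial genes fell, and 0 and 4 of 5 tested erythroid genes fell. Of 8 resting fibroblast genes 3 rose and 0 fell under pyridostigmine, and 2 rose and 1 fell under PBS. Their summed CPM was lower with injury, with a median of 1437 in DTR_PYR against 1873 in WT_PYR, and of 1262 in DTR_PBS against 2107 in WT_PBS. None of the 5 tested T and NK cell genes rose under PBS and 1 did under pyridostigmine, and none of the 4 tested B cell genes changed. Among all genes 8.06% rose and 4.17% fell under pyridostigmine, and 21.3% and 21.6% under PBS. The resting fibroblast counts under PBS are thus near the background. No marker on these lists was at 0 throughout. Without DTR_PYR 4, 5 and 6, injury under pyridostigmine gave 14 macrophage, 7 monocyte and 7 activated fibroblast genes higher, and 7 cardiomyocyte, 6 endothelial and 0 erythroid genes lower. Of resting fibroblast genes 2 rose and 1 fell in that fit, 1 T and NK cell gene rose and 1 B cell gene fell. The same fit called 17.5% of all genes higher, and no share called lower is given beside its falls.

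The libraries with the highest sums of the 32 members had the highest macrophage and lowest cardiomyocyte sums. DTR_PYR 2 had 2934 CPM of macrophage and 37836 CPM of cardiomyocyte genes, and DTR_PBS 1 and 2 had 2871 and 2477 CPM of macrophage and 24055 and 26986 CPM of cardiomyocyte genes. DTR_PYR 4, 5 and 6 had 460, 482 and 494 CPM of macrophage genes, within the range of the libraries without injury, and 88533, 83506 and 75246 CPM of cardiomyocyte genes, below that range (94912 to 110254). The part of these cell types in the members' differences was not tested.

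**Figure D4:**
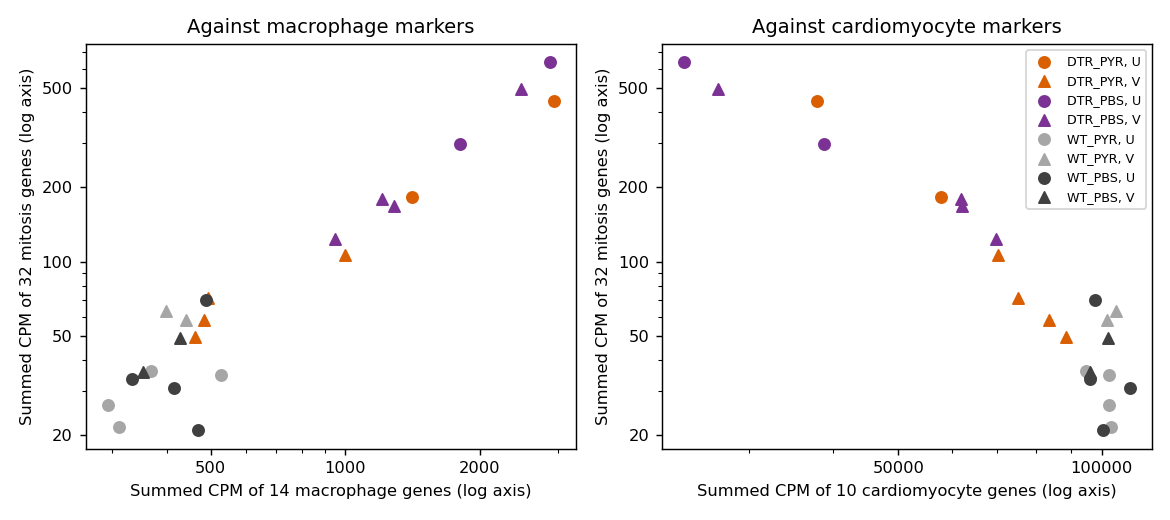
Summed CPM of the 32 mitosis genes without Cenpf against the summed CPM of 14 macrophage genes (left) and of 10 cardiomyocyte genes (right), 1 point per library, all axes logarithmic, with circles for tag letter U and triangles for V. Injured libraries spread between 49.6 and 636 CPM of mitosis genes, with DTR_PYR 4, 5 and 6 at the low end beside the libraries without injury.

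Other genes of cell division, in 8 lists with 133 tested genes, followed the members to different degrees. In DTR_PBS minus WT_PBS 93 rose, 12 fell and 28 were not called, with a median log2 fold change of 1.72. Among all genes 21.3% rose and 21.6% fell there. In DTR_PYR minus WT_PYR 29 rose, 2 fell and 102 were not called, with a median of 0.73. Among all genes 8.06% rose and 4.17% fell in that contrast. Without DTR_PYR 4, 5 and 6 the second contrast gave 66 up and 9 down of the 133, where 17.5% of all genes were higher. The 66 were 9 of 25 kinetochore, 6 of 12 condensin and cohesion, 18 of 29 spindle and 9 of 14 mitotic entry genes. The others were 8 of 17 transcription regulators, 1 of 8 G1 genes, 3 of 10 inhibitors and 12 of 18 replication genes. For the falls in this fit and in the fits that follow in this paragraph, no share of all genes called lower is given. Within U libraries 59 rose and 6 fell of 111 tested in DTR_PYR minus WT_PYR, and 76 rose and 6 fell in DTR_PBS minus WT_PBS. Of all genes 15.6% and 19.5% rose, in that order. Within V libraries 0 of 119 were called in DTR_PYR minus WT_PYR, and 41 rose and 6 fell in DTR_PBS minus WT_PBS. The shares of all genes that rose there were 0% and 9.72%. Total-count scaling set the median of all genes at 0.39 in the first contrast and 0.19 in the second, and gave 102 up and 4 down in the first and 39 up and 2 down in the second. With that scaling 32 of the 33 mitosis genes rose in the first and 20 in the second, beside 36.9% and 12.2% of all genes. The fitted values below are relative to the normalisation by TMM, and those from the second contrast are named as under pyridostigmine.

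Spindle, centrosome and motor genes outside the set gave 26 up and 1 down of 29 under PBS, and 11 up under pyridostigmine. Among all genes 21.3% and 8.06% were higher in these contrasts. Kif20b, a cytokinesis motor, rose by 3.69 ± 0.60 (log2 ± SE; adjusted p = 5.45e-05), and Cep55, which directs the final cut between daughter cells, by 4.17 ± 0.67. Numa1, a spindle pole protein also found in resting nuclei, had −0.44 ± 0.15 (adjusted p = 0.0214), and was not called with total-count scaling.

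Kinetochore and centromere genes gave 16 up and 1 down of 25 under PBS and 1 up and 1 down under pyridostigmine. With all libraries, neither count under pyridostigmine exceeds the share of all genes, 8.06% higher and 4.17% lower. Under PBS those shares were 21.3% and 21.6%. Without DTR_PYR 4, 5 and 6, 9 of 25 rose and 1 fell under pyridostigmine, where 17.5% of all genes rose. Within U libraries 6 of 18 rose and 1 fell, where 15.6% of all genes rose, and within V libraries 0 of 21 were called. Cenph and Cenpn, of the inner kinetochore, rose by 1.98 ± 0.35 and 2.33 ± 0.50, and Casc5 (Knl1), a scaffold for the checkpoint, by 3.47 ± 0.69. Cenpa, the histone H3 variant that marks centromeres, stood at 15.7, 18.0 and 24.6 CPM in DTR_PYR and at 29.0, 41.5 and 46.2 CPM in WT_PYR. Its groups did not overlap, and it fell by 1.02 ± 0.17 (adjusted p = 0.000887) there and by 0.78 ± 0.17 (adjusted p = 0.000638) in DTR_PBS minus WT_PBS. Total-count scaling kept its call under pyridostigmine (−0.88) and not under PBS (−0.39, adjusted p = 0.083).

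Of 12 condensin and cohesion genes 8 rose and 3 fell under PBS, and 4 rose under pyridostigmine. Among all genes 8.06% rose under pyridostigmine. Under PBS 21.3% rose and 21.6% fell, so 3 down of 12 is near the background. Ncaph, a condensin I subunit, rose by 2.58 ± 0.41, Espl1 (separase), which cuts cohesin, by 2.48 ± 0.41, and Cdca5 (sororin), which protects cohesin, by 3.57 ± 0.66. Pttg1 (securin), the separase inhibitor, fell by 1.07 ± 0.24 (adjusted p = 0.00105), and its call held with total-count scaling. The condensin II subunits Ncapd3 and Ncaph2 had −0.84 ± 0.23 and −0.41 ± 0.13, called with TMM and not with total-count scaling.

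Among 14 regulators of mitotic entry and of the anaphase-promoting complex 9 rose and 1 fell under PBS, and 3 rose under pyridostigmine. Among all genes 8.06% rose under pyridostigmine, and under PBS 21.3% rose and 21.6% fell. Cks2, a small partner of Cdk1, rose by 3.65 ± 0.56, the activating phosphatase Cdc25c by 4.44 ± 0.75 and Ccnf (cyclin F) by 3.23 ± 0.66. Wee1, the kinase that holds Cdk1 inactive, fell by 1.15 ± 0.36 (adjusted p = 0.0121, and 0.0512 with total-count scaling). Of 17 regulators of mitotic transcription 10 rose and 3 fell under PBS, and 3 rose under pyridostigmine. The 3 falls of 17 are near the 21.6% of all genes lower under PBS. Foxm1, a driver of late cell cycle transcripts, stood at 5.61, 12.5 and 21.7 CPM in DTR_PBS and at 1.43, 1.71 and 4.89 CPM in WT_PBS, with 2.57 ± 0.51 (adjusted p = 0.000309). E2f1, an activator of S-phase genes, rose by 2.26 ± 0.46. The repressor E2f6 and the pocket protein Rbl2, a subunit of the DREAM complex of resting cells, fell by 1.24 ± 0.24 and 0.92 ± 0.22, also with total-count scaling. Lin52, a MuvB subunit, had −0.72 ± 0.26 and was not called with that scaling.

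DNA replication genes gave 17 up and 0 down of 18 under PBS, and 5 up under pyridostigmine, beside 21.3% and 8.06% of all genes. The replication genes' median log2 fold change was 1.50 under PBS, beside 3.19 for the mitosis genes, and 0.72 under pyridostigmine, beside 1.91. Uhrf1, which carries DNA methylation through replication, rose by 3.03 ± 0.56, the replication factor Mcm10 by 2.80 ± 0.52 and the helicase subunit Mcm6 by 1.72 ± 0.33. Of 8 G1 cyclins and their kinases 3 rose under PBS (Cdk6, Ccne2 and Ccne1, by 1.11 ± 0.29, 1.30 ± 0.49 and 1.04 ± 0.41) and 0 under pyridostigmine, beside 21.3% and 8.06% of all genes. The 3 D-type cyclins were not called in either contrast.

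Cell cycle inhibitors moved both ways, with 4 up and 3 down of 10 under PBS and 2 up and 1 down under pyridostigmine. Among all genes 21.3% rose and 21.6% fell under PBS, and 8.06% rose and 4.17% fell under pyridostigmine, so 3 down of 10 is near the background. Cdkn1a (p21) stood at 33.7, 304 and 695 CPM in DTR_PYR, 372, 501 and 796 CPM in DTR_PBS, 23.3, 27.0 and 34.8 CPM in WT_PYR and 14.9, 32.2 and 40.5 CPM in WT_PBS. It rose by 3.50 ± 0.51 under pyridostigmine (adjusted p = 0.000476) and by 4.19 ± 0.52 under PBS (adjusted p = 9.72e-06). Btg2, an antiproliferative p53 target, rose by 2.27 ± 0.30 and 1.91 ± 0.30 in the same order. Cdkn1c (p57) fell by 0.98 ± 0.26 under pyridostigmine and by 2.02 ± 0.27 under PBS. Cdkn1b (p27) and Ccng2, an atypical cyclin of resting cells, had −0.42 ± 0.15 and −0.85 ± 0.29 under PBS, and neither was called with total-count scaling.

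**Figure D5:**
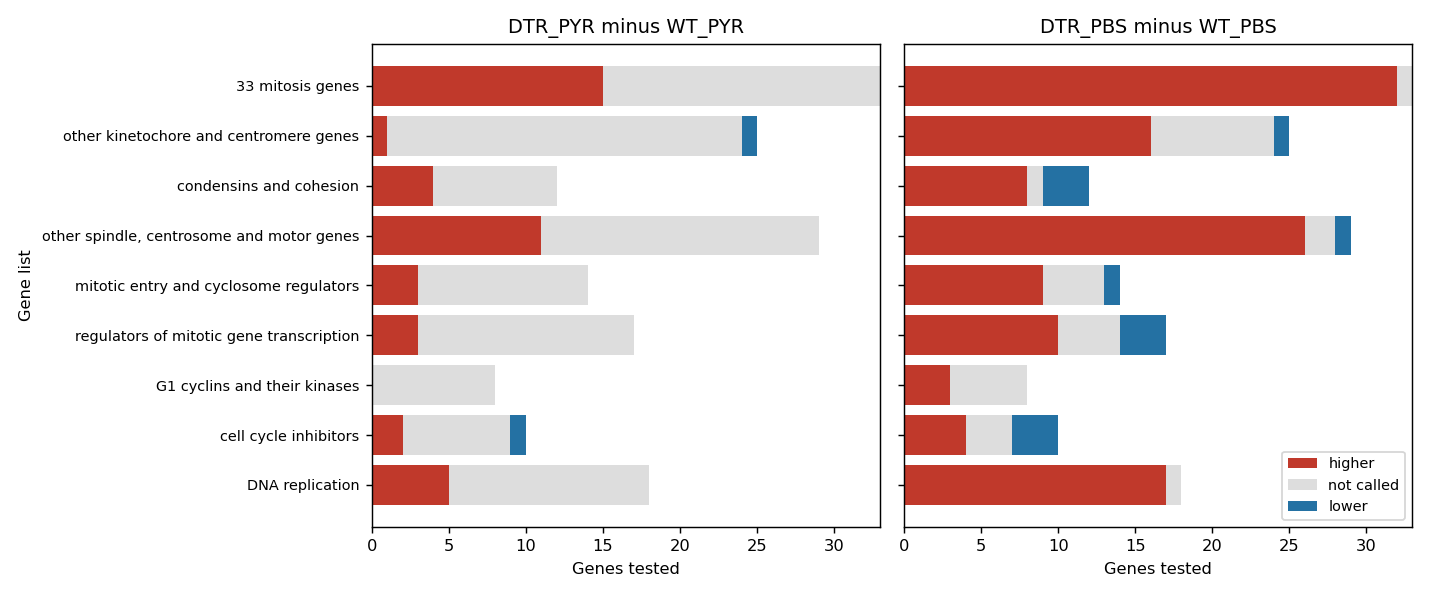
Number of genes called higher (red), not called (grey) and called lower (blue) among the 33 mitosis genes and the 8 lists of other cell division genes, for DTR_PYR minus WT_PYR (left) and DTR_PBS minus WT_PBS (right). Red takes 32 of 33 mitosis genes, 26 of 29 spindle genes and 17 of 18 replication genes under PBS, and less of every list under pyridostigmine.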

How the data were processed

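Polyadenylated RNA of 24 hearts was chemically fragmented and sequenced as single-end, non-strand-specific libraries, per the labels' protocols. Build GRCm38 and the tools HTSeq, TopHat2 (2.1.1), TopHat, Bowtie2, edgeR and DESeq are listed, with no roles, per the submitters' processing notes. The deposited values are raw read counts per gene (46078 genes), made by the authors without normalisation. All else was computed here with R 4.3.3.

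The 15456 genes with more than 0.5 CPM in 6 or more libraries were scaled by TMM and fitted with edgeR 4.0.16 (quasi-likelihood F test, two-sided) over all 24 libraries in 4 groups. There were 5 contrasts, and a call needed a Benjamini-Hochberg adjusted p under 0.05 over all genes. SE is the log2 fold change divided by the root of F, and a 95% interval is 1.96 SE to each side. Totals were 1877914 to 37842245 counts, which limits precision for genes at a few counts. The authors' filtered table of 15140 genes holds all 33 members and was used for that alone. Alternatives were total-count and DESeq2 size factors, other filters, DESeq2 1.42.0, limma voom (3.58.1), the tag letter as a term, each letter alone, leaving out tag series, shallow libraries or single libraries, and fits of the contrast's groups alone. The script was tested on simulated data.

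The members and the lists were chosen with earlier results of these data known. Replicates were numbered in accession order, and p-values measure the spread between these libraries. Values for every group are given for the member with the highest level per kb in each role. For other members whose call differed from the majority in a contrast, values of the groups of that contrast are given. Of each pathway list, up to 3 called genes with the smallest p and every gene called against the majority are named, except 1 that is not reported here. Values of Cdk1, Top2a and Bub1 and the D-type cyclins were added after they were seen. CPM per kb used the merged exons of GENCODE vM21, and promoters came from RefSeq (GRCm38.p6).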

Additional observations from a re-analysis of the deposited data

Results flagged for a closer look

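Each of 35 values (the 33 members and 2 sums) was compared within each of the 4 groups of 6 libraries, 140 sets in all, on the log2(CPM + 0.1) scale. A library stood apart in 8 sets, where its gap to the nearest other library as a share of the group's range passed Dixon's 95% critical value. Chance alone gives about 1 in 20 sets when the sets are independent. These sets share the same libraries and the 2 sums are made of the members, so 8 of 140 cannot be judged against that rate. The apart value was the lowest in 6 sets and the highest in 2.

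Both high values were those of DTR_PYR 2. Cdk1 was at 9.77 CPM there, with the other DTR_PYR libraries between 1.12 and 2.35 CPM. Cdc20 was at 25.7 CPM there, with the others between 1.94 and 4.68 CPM. DTR_PYR 2 is also the library whose omission changed the calls between DTR_PYR and DTR_PBS.

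Cenpf was at 4.27 CPM in WT_PYR 1, against 18.9 to 38.1 CPM in the other WT_PYR libraries. Cdc20 was at 1.27 CPM in WT_PYR 6, against 2.61 to 3.22 CPM in the others. Prc1 was at 0.855 CPM in WT_PBS 4, against 1.86 to 2.79 CPM in the others. Nusap1 had a count of 0 in DTR_PYR 3, which allows up to 1.17 CPM, against 1.40 to 6.81 CPM in the others. Ccnb1 had a count of 0 in WT_PYR 4, which allows up to 0.439 CPM, against 0.305 to 0.639 CPM in the others. Ttk had a count of 0 in WT_PYR 1, which allows up to 0.229 CPM, against 0.137 to 0.269 CPM in the others.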

How the results depend on the processing

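No paired analysis was possible because the replicate numbers only follow accession order and each library carries its own animal tag. The cause of each change below was not tested. In DTR_PBS minus WT_PBS the members called stayed between 26 and 32 under every alternative run, and the genes called (6634) moved to 2463 in V libraries alone. In DTR_PYR minus WT_PYR the 15 members called became 24 with DESeq2, 0 with limma voom, 26 in U and 0 in V libraries alone, 0 without the libraries of the WT-only tag series, 0 without the 3 shallowest libraries, 9 with only the contrast's groups and 32 without DTR_PYR 4, 5 and 6. The genes called (1891) became 1232 with no filter, 787 with limma voom, 2920 with the tag letter as a term, 4218 in U and 0 in V libraries, 330 without that tag series, 98 without shallow libraries, 1254 with only the contrast's groups and 5043 without DTR_PYR 4, 5 and 6. In DTR_PYR minus DTR_PBS the 0 members became 30 with limma voom, 16 in V libraries and 25 without shallow libraries, and the 0 genes became 242 with DESeq2, 1765 with limma voom, 609 in V libraries and 2079 without shallow libraries. DESeq2 called 1 gene in WT_PYR minus WT_PBS and 9 in the interaction, where 1 member and 10 genes were called without shallow libraries. Leaving out 1 library at a time gave 31 to 32 members and 5660 to 6873 genes in DTR_PBS minus WT_PBS. It gave 2 (without DTR_PYR 2) to 23 (without DTR_PYR 4) members and 748 (without DTR_PYR 1) to 2707 genes in DTR_PYR minus WT_PYR, where DTR_PYR 5, WT_PYR 4 and WT_PYR 6 also moved the member count by over 1.5 times. In DTR_PYR minus DTR_PBS it gave 0 to 27 members and 0 to 2395 genes, both highest without DTR_PYR 2. All such counts were 0 in WT_PYR minus WT_PBS and the interaction. Over 75 single-gene results, 2501 alternatives kept direction and call, 122 lost and 103 gained the call, and 27 turned the sign, with no call under the alternative. Cenpf turned to 0.073 (total-count scaling) and 0.35 (U libraries) in DTR_PBS minus WT_PBS. In DTR_PYR minus DTR_PBS it turned to 0.030 (no filter), 0.42 (V libraries), 0.21 (no shallow libraries), 0.61 (without DTR_PBS 1 and 2) and ran between −0.29 and 0.23 without single libraries. There Aurkb turned to 0.051 (U libraries) and 0.12 (without DTR_PYR 4, 5 and 6), and Tpx2 to 0.077 (without those 3) and 0.058 (without DTR_PBS 1 and 2). In V libraries of DTR_PYR minus WT_PYR the values were Racgap1 −0.45, Birc5 −0.68, Aurka −0.38, Ube2c −0.32, Nuf2 −0.31, Cdc20 −0.24, Kif23 −0.20, Nusap1 −0.18, Kif4 −0.14, Spag5 −0.046 and Cdca3 −0.0091, and without shallow libraries Cdc20 had −0.0012. Depth limits Bub1, Ttk, Ndc80 and the other members with counts of 0.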
